A study of Mus musculus with 12 samples.

Results

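Stellate and mesenchymal cell genes were followed in the fetal mouse liver as 10 of the 30743 gene rows of a whole-liver RNA-seq table. They were Des, Pdgfrb, Reln, Lrat, Acta2, Dcn, Lum, Hgf, Ngfr and Lhx2, taken by gene symbol, and each symbol had 1 row. Whole livers were collected from C57BL/6 male fetuses at 15 ± 0.5 dpc. The control group was 6 fetuses of dams fed a 13.5 kcal% fat diet, and the HFD group was 6 fetuses of dams fed a 60 kcal% fat diet, each for 12 to 14 weeks. The labels give strain C57BL/6J for all 12 livers and name no litter or dam. The value used for each gene was its average log2 CPM (the log2 of CPM, the reads of a gene scaled to a common library size) over the 12 livers of both diets together. No value of a single liver entered, so the levels below carry no SD, and no comparison of the diets was made.

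Hepatic stellate cells lie between the sinusoidal endothelium and the hepatocytes, store retinol as retinyl esters, and in an injured liver turn into contractile, matrix-producing myofibroblasts. In the fetal liver they arise from the mesothelium and the mesenchyme of the septum transversum, and together with portal fibroblasts and smooth muscle they form the stroma in which blood cells develop. In a whole liver, fewer cells of a type and less RNA per cell cannot be told apart.

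Transcripts of 9 of the 10 genes were present above 1 CPM, and Pdgfrb was the exception, listed at 0. Across all rows, 33.1% lay above 1 CPM, and across the 18718 protein-coding rows 45.1%. The median average log2 CPM was 4.24 over the 10 genes, -2.17 over all rows and 0.20 over the 19652 rows with reads. The 9 genes with reads summed to 282 CPM, and Lum, Reln and Acta2 held 71.5% of this sum. Among rows with reads, ranked by CPM without regard to gene length, the 9 genes had a median percentile of 78.8. They ran from percentile 50.4 for Hgf to 90.8 for Lum.

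Levels of different genes were compared per kilobase of exon (all exon bases of the gene in GENCODE M21), because a longer transcript yields more fragments. On this scale the matrix gene Lum and the contractile gene Acta2 stood highest, at 36.6 and 22.7 CPM per kilobase. Ngfr and Des followed at 6.59 and 6.36, then Lrat at 2.95, Reln at 2.63 and Dcn at 2.41. Lhx2 and Hgf were lowest of the genes with reads, at 0.660 and 0.165 CPM per kilobase. The highest and the lowest of these 9 levels differed 222-fold, and 107-fold per kilobase of the longest transcript, with Hgf at 0.342. Reln fell from second place by CPM to sixth place per kilobase, since its annotated exons cover 23.7 kb against 2.45 kb for Lum. Per kilobase of the longest transcript of each gene, Reln had 5.33 and stood above Dcn and Lrat. On that scale Des, at 7.89, also stood above Ngfr, at 6.59. Whether neighbours in this order, such as Ngfr and Des, differ beyond the spread between livers was not tested. Ranked per kilobase of exon among protein-coding rows with reads, the 9 genes ran from percentile 34.5 for Hgf to 92.1 for Lum. Ranked by CPM among the same rows, Hgf stood at percentile 44.0 and Lum at 88.5.

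**Figure D1:**
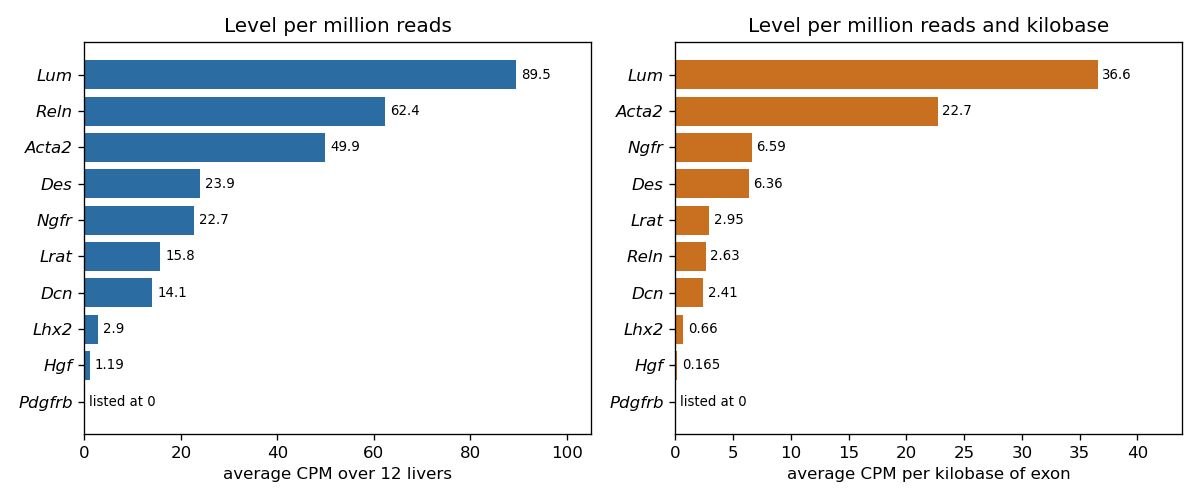
Average level of the 10 genes over the 12 livers, as CPM (left, linear axis) and as CPM per kilobase of exon (right, linear axis), each sorted by its own level, with no error bars because no single liver entered. Lum is highest on both scales, at 89.5 CPM and 36.6 CPM per kilobase, Reln drops from second to sixth place, and Pdgfrb is listed at 0.

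The matrix genes of the set were the small leucine-rich proteoglycans Lum and Dcn. Lumican and decorin both bind collagen fibrils, and decorin also binds TGF-beta. The genes are neighbours on chromosome 10 of GRCm38 (the build of mm10), on the plus strand, with Dcn at chr10:97479609-97518143 and Lum at chr10:97565128-97572703 and 47.0 kb between them. Lum had an average log2 CPM of 6.48 (89.5 CPM), which corresponds to about 14084 reads over all libraries, with a 95% exact Poisson interval of 13852 to 14319 reads. Dcn had 3.81 (14.1 CPM), or about 2193 reads with an interval of 2102 to 2287. The read numbers were solved from the average log2 CPM, and these intervals, here and below, cover counting error only. They cover neither the error of this step nor the variation between livers. Per kilobase of exon, Lum was 15.2-fold above Dcn. The size of this ratio depends on the gene model, since Dcn had 2.41 CPM per kilobase over all its exons and 8.00 per kilobase of its longest coding transcript, while the single annotated transcript of Lum gave 36.6 both ways. Of the other 14 proteoglycans of this family, 10 had reads and 3 lay above 1 CPM. These were Bgn (biglycan), Prelp and Fmod (fibromodulin), at 16.2, 7.27 and 6.07 CPM per kilobase, which placed all of them below Lum and above Dcn on the scale of all exons.

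The cytoskeletal genes were Acta2 and Des. Acta2 encodes the smooth muscle alpha-actin of vascular smooth muscle and myofibroblasts, and Des encodes the intermediate filament desmin, found in muscle and in rodent stellate cells. Acta2 (chr19:34241090-34255590, minus strand) had an average log2 CPM of 5.64, or about 7842 reads with an interval of 7669 to 8018. Des (chr1:75360329-75368579, plus strand) had 4.58, or about 3742 reads with an interval of 3623 to 3864. Per kilobase of exon, Acta2 lay 3.57-fold above Des. The size of this ratio, too, depends on the gene model, since per kilobase of the longest transcript the levels were 24.5 and 7.89. Because the actins resemble each other closely in sequence, the counting could divide their reads, and the separate levels of Acta2 and its relatives are uncertain. All 5 other actins were above 1 CPM. The cytoplasmic Actb and Actg1 had 964 and 54.2 CPM per kilobase, the striated muscle actins Actc1 and Acta1 35.9 and 35.8, and the enteric smooth muscle actin Actg2 2.63. Acta2 thus lay below both striated muscle actins on this scale.

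Among the other intermediate filaments and partners of desmin, 2 of 7 lay above 1 CPM. Vim (vimentin) had 68.1 CPM per kilobase and Gfap 13.9, both above the 6.36 of Des. GFAP is known from astrocytes and also from rodent stellate cells. Synm, Nes, Plec and Cryab had reads but lay below 1 CPM, and Prph was listed at 0. Of 9 smooth muscle contractile genes, 6 exceeded 1 CPM, with Myl9 and Tagln highest at average log2 CPM 6.32 and 4.83 and Myh11 and Cnn1 lowest at -2.49 and -1.20. Of 7 striated muscle markers, listed because muscle also carries Des, 5 exceeded 1 CPM. Myh3 and Ckm were highest, at about 5018 and 1603 reads in all, and Tnnt3 and Ttn lowest, with Tnnt3 listed at 0 and Ttn at about 62 reads. The part of muscle RNA in the level of Des was not tested.

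Lrat, the enzyme that esterifies retinol for storage, is the member most tied to the vitamin A store of stellate cells. Lrat (chr3:82892579-82903973, minus strand) had an average log2 CPM of 3.98, or about 2461 reads with an interval of 2365 to 2560. Of 10 other genes of retinol uptake, binding, esterification and oxidation, 8 lay above 1 CPM. Dgat1, which can also esterify retinol, had 4.76 CPM per kilobase, against 2.95 for Lrat, and Rdh10, which oxidises retinol to retinaldehyde, had 5.05. The retinaldehyde dehydrogenases Aldh1a2 and Aldh1a1 had 2.53 and 0.940 CPM per kilobase. Plin2, which coats lipid droplets in many cell types, had 123. The plasma retinol carrier Rbp4 had 7.44, the retinol importer Stra6 about 3 reads in all, and the lipase Pnpla2 was listed at 0.

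**Figure D2:**
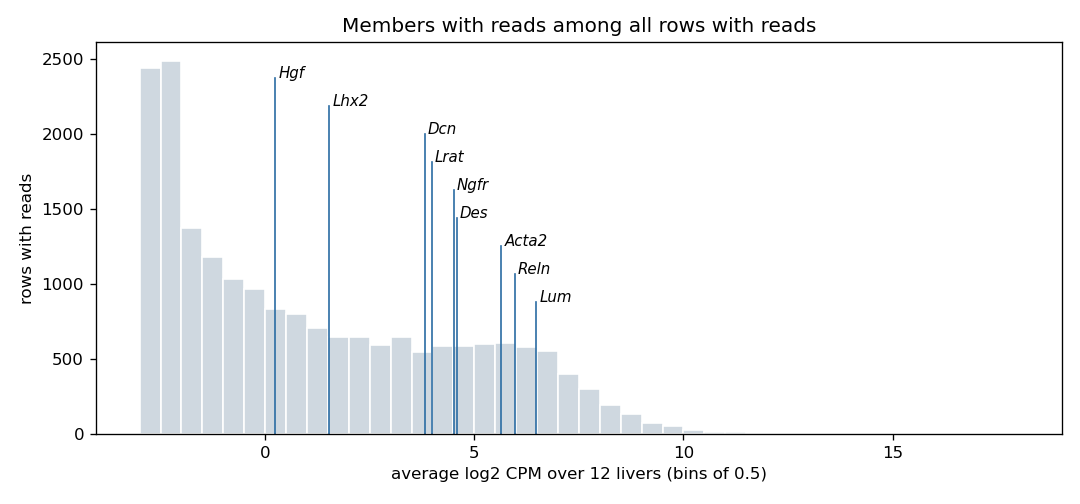
Histogram of the average log2 CPM of all 19652 rows with reads (horizontal axis, bins of 0.5; vertical axis, number of rows), with a vertical line at each of the 9 genes with reads, the height of a line serving its label only. The lines run from Hgf at 0.25 to Lum at 6.48, all of them at or to the right of the median of these rows, 0.20.

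The secreted ligands were Hgf and Reln. HGF is a growth factor made by mesenchymal cells that acts on epithelial cells through the receptor MET, and hepatocytes are a classical target. Hgf (chr5:16553495-16620152, plus strand) was the lowest of the 9 genes with reads, at an average log2 CPM of 0.25 (1.19 CPM), which rests on about 163 reads with an interval of 139 to 190. Without the prior count (a small number of reads added to every gene) this is 1.03 CPM with an interval of 0.881 to 1.21, so its place above 1 CPM lies within counting error. Met had 60.4 CPM, and per kilobase it had 7.87 against 0.165 for Hgf. The HGF activators F12 and Hgfac, proteases of the plasma made in the liver, had 146 and 86.5 CPM per kilobase. The membrane proteases Hpn and St14, which also cleave pro-HGF, had 1.29 and 0.381, and their inhibitor Spint2 had 0.274. Spint1, another inhibitor, had about 4 reads in all, and its 0.178 CPM lay near the 0.152 CPM of rows listed at 0. Plau was listed at 0. Ligand and receptor thus stood far apart in this table, with Met and the plasma activators high and Hgf near 1 CPM.

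Reln encodes reelin, an extracellular glycoprotein known from the positioning of neurons and also made by stellate cells. It is by far the longest gene of the set (chr5:21884454-22344702, minus strand, 460 kb). Its average log2 CPM was 5.96 (62.4 CPM), or about 9807 reads with an interval of 9614 to 10003. The receptors of reelin, Vldlr and Lrp8, had average log2 CPM of -1.35 and -1.37, or 0.0389 and 0.0368 CPM per kilobase against 2.63 for Reln. The adaptor Dab1, which relays the signal inside the cell, had about 1 read in all. Of the downstream kinases and adaptors, Crkl and Fyn lay above 1 CPM at 27.5 and 1.09 CPM per kilobase, and Crk and Src lay below it. Here the ligand was high and the receptors were low. Met has 1 curated RefSeq transcript, Hgf 5, Reln 2, Vldlr 3 and Lrp8 7. Across genes the share above 32 CPM fell with this number, while the median did not fall steadily, as described further on. The part of this number in both contrasts of ligand and receptor was not tested.

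The receptors of the set were Ngfr and Pdgfrb. Ngfr encodes the low-affinity neurotrophin receptor p75NTR, carried by nerves, Schwann cells and stellate cells. Ngfr (chr11:95568818-95587735, minus strand) had an average log2 CPM of 4.51, or about 3556 reads with an interval of 3440 to 3675. Of 10 neurotrophins, Trk receptors and co-receptors, all had reads and 3 lay above 1 CPM. These were the Nogo receptor Rtn4r at 0.843 CPM per kilobase, the neurotrophin Ntf5 at 0.401 and sortilin (Sort1) at 0.140, against 6.59 for Ngfr. Without the prior count Ntf5 and Sort1, at about 144 and 143 reads in all, lay below 1 CPM. The neurotrophins Bdnf and Ntf3 had about 7 and 4 reads in all, and the receptors Ntrk2 and Ntrk3 about 1 and 10. Neural and Schwann cell markers were counted because nerves also carry Ngfr and Reln. Of 7, 2 lay above 1 CPM, Tubb3 at average log2 CPM 1.16 and Stmn2 at 0.16, and 5 of the 7 had reads. Stmn2, at about 152 reads in all, also lay below 1 CPM without the prior count. The part of nerve RNA in the levels of Ngfr and Reln was not tested.

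Pdgfrb, the PDGF receptor of pericytes and stellate cells (chr18:61045150-61085061, plus strand), was listed at 0, the shared lowest value of -2.71 that 11091 rows held. Pdgfb, which encodes a ligand of this receptor, had an average log2 CPM of 3.20 (2.20 CPM per kilobase, about 1421 reads). The alpha receptor Pdgfra had -1.17, about 46 reads, and Pdgfa and Pdgfc had about 3 and 1, while Pdgfd was listed at 0. Of the 5 genes of this list only Pdgfb exceeded 1 CPM. A value at or near 0 in this table cannot be read as absence of a transcript. Genes that every cell uses were also very low, among them Ppia (cyclophilin A) with about 2 reads in all and Tbp with about 77, while Actb had 406915. These genes were chosen after their values were seen.

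Lhx2 encodes a LIM-homeodomain transcription factor that stellate cells require in the developing liver. Lhx2 (chr2:38339281-38369733, plus strand) had an average log2 CPM of 1.54 (2.90 CPM), or about 433 reads with an interval of 393 to 476. Of 13 other LIM-homeodomain factors and cofactors, 10 had reads and 1 lay above 1 CPM. This was Ldb1, the broadly used cofactor that binds LIM domains, at 5.89 CPM per kilobase against 0.660 for Lhx2. The 11 other LIM-homeodomain factors ran from 0 for Lhx4 and Lhx6 to about 65 reads for Lmx1a, so Lhx2 had more reads than each of them, and more per kilobase.

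**Figure D3:**
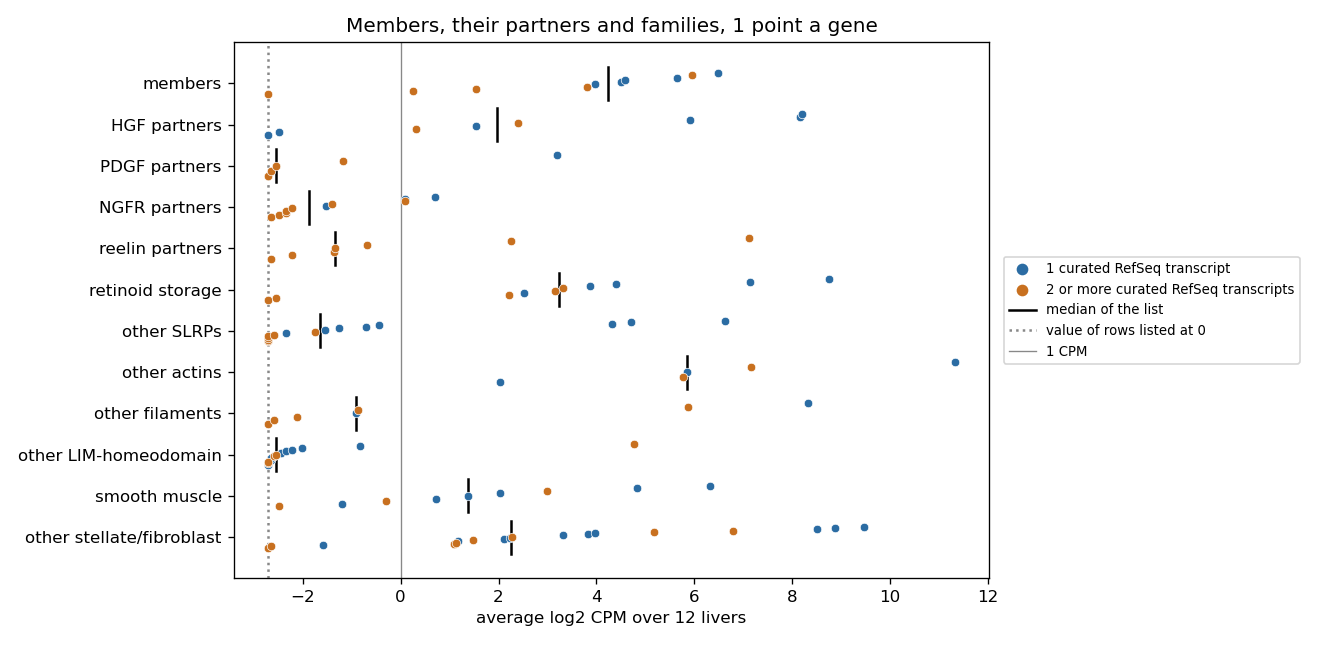
Average log2 CPM (horizontal axis) of the 10 genes and of 11 lists of their partners and relatives, 1 point a gene, with a black bar at the median of each list, a dotted line at the value of rows listed at 0 and a solid line at 1 CPM. Blue points are genes with 1 curated RefSeq transcript and orange points genes with 2 or more. The median is 4.24 for the 10 genes, 5.86 for the other actins, -1.35 for the reelin partners and -2.55 for the PDGF partners.

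Other genes of stellate cells, pericytes and fibroblasts were mostly present, and 15 of 18 lay above 1 CPM with a median average log2 CPM of 2.26. The fibrillar collagen genes Col3a1 and Col1a1 were highest, at 9.48 and 8.87 on the log2 scale and at 72.6 and 71.4 CPM per kilobase, against 36.6 for Lum. Ecm1, listed at 0, and Mfap4, with about 1 read, were lowest. Of 7 mesothelial genes, 5 lay above 1 CPM, from Alcam and Upk3b at 6.98 and 4.41 down to Gpm6a and Msln at -1.26 and -2.55. Of these 5, 1 gene with about 155 reads in all lay below 1 CPM without the prior count.

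The labelled tissue was checked against marker lists, and the hepatocyte and erythroid lists had the highest medians, 11.34 and 9.44 on the log2 CPM scale, with 6 of 7 genes above 1 CPM in each. Alb and Afp stood at 15.95 and 15.73 and Slc4a1 at 13.56. At the other end were Hnf4a, listed at 0, and Dlk1 at 0.56, and Alas2 and Hemgn at -0.51 and 4.09. Of 8 endothelial markers 5 exceeded 1 CPM (Lyve1 7.24 and Cdh5 7.17 highest, Pecam1 and Tek listed at 0). Of 7 macrophage markers 5 did (Marco 7.70 and C1qa 6.37 highest, Cd68 -2.26 and Csf1r -0.55 lowest), and of 7 bile duct markers 4 did (Krt7 2.82 and Krt19 2.60 highest, Spp1 lowest at -2.60). The defining markers Hnf4a and Pecam1 were thus listed at 0 beside others of their lists that were high, as Pdgfrb was among the stellate genes.

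One property of the gene models moved with the level, namely the number of curated RefSeq transcripts of a gene. Des, Lrat, Acta2, Lum and Ngfr have 1 such transcript each, and their average log2 CPM ran from 3.98 to 6.48. Pdgfrb, Reln, Dcn and Lhx2 have 2 and Hgf has 5, and they ran from the lowest value of the table to 5.96. Across protein-coding rows, 23.0% of the 10976 genes with 1 transcript exceeded 32 CPM, against 11.1% of the 3556 with 2, 7.97% of the 1706 with 3, 7.06% of the 1403 with 4 or 5 and 5.55% of the 703 with 6 or more. The median average log2 CPM did not fall steadily, at -0.30, -0.71, -1.05, -0.93 and -0.78 over these classes, nor did the share above 1 CPM, at 48.4%, 43.0%, 38.2%, 39.1% and 39.8%. The median was -0.88 over all genes with 2 or more, while the share listed at 0 was larger with 1 transcript, at 24.8% against 18.3%. The 162 genes of the other lists were chosen with earlier results of these data known. Among them, 64 of 87 with 1 transcript exceeded 1 CPM, against 25 of 75 with 2 or more. In these 2 classes, 2 and 16 genes were listed at 0. The shares above 1 CPM were 73.6% and 33.3%, against 48.4% and 40.8% over all protein-coding rows of the same classes.

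**Figure D4:**
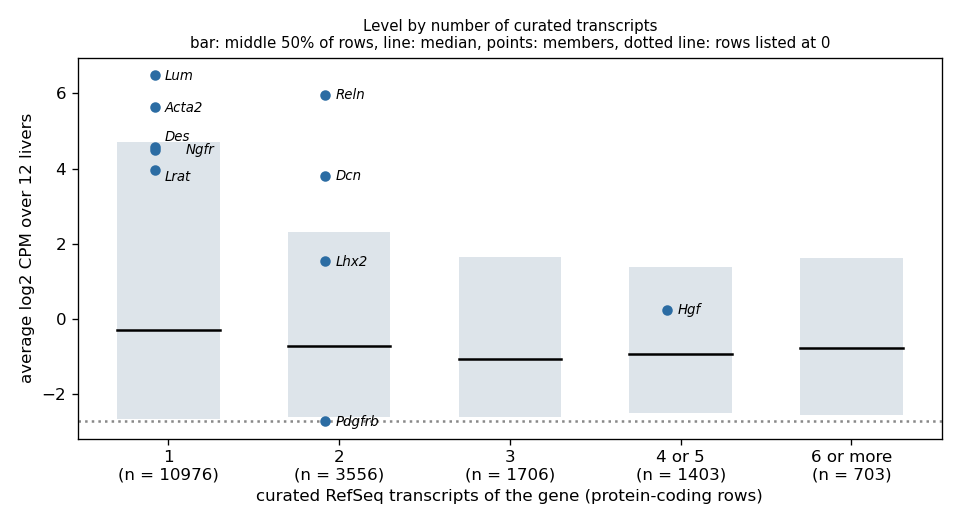
Average log2 CPM (vertical axis) of protein-coding rows by the number of curated RefSeq transcripts of the gene (horizontal axis), as the middle 50% of rows (grey bars) with their median (black line), with the 10 genes as blue points and a dotted line at the value of rows listed at 0. The 5 genes with 1 transcript lie between 3.98 and 6.48, and the 5 with more lie between the dotted line and 5.96.

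The level moved also with how much of a gene is held by 1 transcript only. Of 7368 protein-coding genes with 2 or more curated transcripts, 3069 had all these transcripts in the gene models, and only these 3069 were used. Exon bases counted as held by 1 transcript where they lay in a single transcript and in no other gene. The median average log2 CPM of the 3069 genes was -1.90 where at most 10% of the exon bases were so held. It was 2.30 where 75 to 90% were. The share above 32 CPM was 2.65% of the 1095 genes in the first class and 22.0% of the 132 genes in the second. Above 90%, a class of only 27 genes, the median was 2.03 and the share 18.5%, so the rise did not continue. For Dcn 18.7% of these bases lay in a single transcript, for Lhx2 65.2% and for Reln 6.96%, so Reln was high for its class. For Hgf and Pdgfrb the models held fewer transcripts than RefSeq and no share was computed. How reads in bases shared by several transcripts were counted is not given in the sources used here, and its part in the levels of Pdgfrb, Hgf, Dcn, Lhx2 and Reln was not tested. Of the low genes used by every cell, Ppia and Tbp have 1 curated transcript each, while Ldha (about 100 reads) has 3 and Gusb (about 25 reads) has 4. The high ones, Actb, Eef1a1, Rplp0 and Sdha, have 1 each. These genes, too, were chosen after their values were seen.

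Exon overlap with other genes was small for the set. Des shared 220 exon bases with the antisense gene Gm15179 (average log2 CPM -2.21), Reln shared 246 with the antisense gene Gm10475, and Hgf shared 484 with the unclassified transcript Gm43489 on its own strand. The kit did not mark strand, so reads of Des or Reln in these bases cannot be told apart from reads of the antisense gene. The 7 other genes shared no exon base with another gene.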

How the data were processed

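Per the labels, polyA-selected RNA of 6 control and 6 HFD livers was sequenced from an unstranded kit, and the submitters' processing notes name cutadapt 1.2.1, Subread 1.3.6-p1, edgeR and build mm10. Genes were annotated with biomaRt. The edgeR version, the counting tool and the annotation release are not given in the sources used here. The authors deposited 1 table of 30743 rows with the average log2 CPM and with the log2 fold change, p-value, FDR and fold change of their diet comparison under 2 dispersions. The comparison columns were not used. The planned edgeR quasi-likelihood test needs counts of single livers, which this table does not give. The members and lists were chosen with earlier results of these data known.

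The average log2 CPM includes a prior count. It was solved from the 11091 rows at the lowest value and the 1267 rows with 1 read as 2.00, which gave a mean effective library of about 13136635 reads and each gene's reads. In a simulation of 9800 rows, those with at least 100 reads had a median error of 0.348% and a 95th percentile of 1.36%. The simulated libraries differed little in size and were averaged with 1 dispersion for all genes. The sizes of the real libraries are not known, so the error in the real data may differ. CPM values and levels per kilobase keep the prior count. GENCODE M21 (GRCm38) gave positions and exons for all 10 genes, and RefSeq (GRCm38.p6) the numbers of curated transcripts. All 10 genes were named, with any gene of the partner and family lists, and the 2 highest and 2 lowest of each marker list, except that some genes are not reported here. Figures were drawn with matplotlib 3.10.9, and values computed with scipy 1.17.1, pandas 2.3.3 and numpy 2.4.6 under Python 3.11.15.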

Additional observations from a re-analysis of the deposited data

How the results depend on the processing

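The count of 9 genes above 1 CPM was also 9 at a threshold of 0.5 CPM and with the prior count removed, and 8 at 2 CPM, where Hgf dropped out. The counting interval of Hgf, 0.881 to 1.21 CPM, includes 1 CPM. The median percentile of the 9 genes with reads, 78.8, became 86.5 among all rows and 74.3 among protein-coding rows with reads. Among rows above 1 CPM, Hgf moved from percentile 50.4 to 4.26, Lhx2 from 60.4 to 23.4 and Dcn from 74.7 to 51.1. In subsets chosen after seeing the data, it was 79.2 over the 5 genes with 1 curated transcript and 67.5 over the 4 with more. Lum, Acta2, Lhx2 and Hgf kept their places per kilobase with the longest transcript or the longest coding transcript as length, while with the latter Dcn moved above Des, Ngfr, Lrat and Reln. The longest transcript moved Hgf from 0.165 to 0.342 and Reln from 2.63 to 5.33 CPM per kilobase. Removing the prior count moved Hgf from 0.165 to 0.144 CPM per kilobase. No paired analysis was possible because the table used here gives no values of single livers. For the same reason the diet tests and the fits leaving out single livers were not run. Pdgfrb is listed at 0, and among the genes with reads Hgf and Lhx2 rest on the fewest, about 163 and 433. Counting intervals say nothing of the spread between livers.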
